A study of Drosophila melanogaster with 4 samples.

Results

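The genes described here are 80 Drosophila genes known by a CG number and chosen by their values on 2 arrays that compared laser wounded with unwounded syncytial embryos: their deposited log2 ratio was at or above 0.4 in experiment 7 and at or below -0.3 in experiment 8. They were taken from 3131 CG-numbered genes with a value on all 4 arrays, of which they make up 2.56%, and from 8222 genes with such values in all, of which 2.44% met both limits. The spots of a gene were averaged on each array, and 5 CG-numbered genes (CG1598, CG3652, CG4960, CG14545 and CG31075) were left out by name, 4 of which met both limits. Of 24 further CG-numbered genes that lacked a value on at least 1 array, 0 met both limits. Since the values of experiments 7 and 8 chose the members, those values are given as a description only. Experiments 3 and 4 played no part in the choice, and most of what follows concerns the members there.

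Each array carried total RNA of wounded embryos and of unwounded embryos, harvested at 0 min. Wounded embryos came from collections of 0 to 1 h, were dechorionated by hand, placed in halocarbon oil and ablated with a laser, and were then frozen in liquid N2. Unwounded embryos were handled in the same way but for the laser, and both carried sGMCA, a reporter that marks cortical actin. The arrays are spotted cDNA arrays hybridised with Cy3 and Cy5 together. RNA of wounded embryos was labelled with Cy3 and RNA of unwounded embryos with Cy5, except in experiment 4, the dye swap, where the labels were exchanged. RNA came from pooled embryos, so fewer cells or nuclei of a kind and less RNA in each cannot be told apart. The experiments are described as independent, but whether they began from separate cultures is not stated; a p-value here reflects only how much the arrays varied, which may be technical.

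The direction of the deposited ratio is not settled. If it is Cy5 over Cy3, a value above 0 means higher in unwounded embryos in experiments 3, 7 and 8 and higher in wounded embryos in experiment 4. If it is wounded over unwounded, a value above 0 means higher in wounded embryos on every array. Experiments 3, 7 and 8 run the same way under both readings, and the sign of experiment 4 relative to them does not. Over the 8222 genes, experiments 7 and 8 correlated at a Pearson r of -0.33, although they share a dye orientation. That is a disagreement between arrays and does not bear on which reading holds. Since the direction is not settled, values are written as above or below 0. Fits of experiments 3 and 4 are given with experiment 4 turned (as for Cy5 over Cy3) and not turned.

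A CG number is the identifier that the Drosophila genome annotation gives to a predicted gene. Genes that have been studied usually acquire a name, so a set of CG-numbered genes holds many whose role in the fly has not been described. The syncytial embryo is a single cell with many nuclei that share a cytoplasm, and it runs largely on mRNA and protein that the mother placed in the egg until zygotic transcription takes over. Its mRNA pool therefore changes with the age of the embryos collected, as maternal transcripts are degraded and early zygotic genes come on.

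The values that chose the members spanned 0.40 to 1.49 in experiment 7, with a median of 0.55, and -1.93 to -0.30 in experiment 8, with a median of -0.47. Most members thus lay near the limits, and 3 of 80 reached 1 in experiment 7 and 2 reached -1 in experiment 8. CG13159 had the widest gap between the 2 arrays, at 1.12 in experiment 7 and -1.44 in experiment 8, a difference of 2.56. CG7950 followed, at 0.60 in experiment 7 and -1.93 in experiment 8, so that its gap came mainly from experiment 8. CG30431 was its opposite, at 1.49 in experiment 7 and -0.90 in experiment 8. CG14589 had 0.86 in experiment 7 and -0.84 in experiment 8, and CG31300 had 1.12 in experiment 7 and -0.51 in experiment 8. The narrowest gaps were 0.72 for CG10005, 0.74 for CG9630, 0.74 for CG4882, 0.74 for CG12010 and 0.76 for CG2246. At the limit of experiment 7, CG9630 (0.402) and CG10959 (0.404) lay just inside, and CG3566 (0.391) and CG11655 (0.382) just outside. At the limit of experiment 8, CG10005 (-0.304) and CG3663 (-0.305) lay just inside, and CG11095 (-0.299) and CG5989 (-0.294) just outside. Neither limit falls in a gap between values, so the set is a range cut from a continuum.

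In experiment 3, which shares its dye orientation with experiments 7 and 8, nearly all members lay above 0. Of the 80, 74 were above 0 (92.5%), against 42.9% of all 8222 genes and 37.7% of the CG-numbered genes. The member median was 0.24, with quartiles of 0.14 and 0.33, while the median of the other CG-numbered genes was -0.06. The shift was small for most members, since 50 of the 80 lay between 0.1 and 0.4, a range that holds 20.1% of all genes. Only 13 members reached 0.4, against 3.56% of all genes and 3.23% of the CG-numbered genes. The 3 arrays are not free of each other over genes, since experiments 3 and 7 correlated at a Pearson r of 0.29 and experiments 3 and 8 at -0.10 over the 8222 genes.

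In experiment 4, the dye swap, the members showed no such shift. Exactly 40 of 80 lay above 0 (50%), against 49.3% of all genes and 47.4% of the CG-numbered genes. The member median was -0.01, with quartiles of -0.11 and 0.07, and the median of the other CG-numbered genes was also -0.01. The lowest member was CG14589 at -0.34 and the highest was CG10591 at 0.86, so that no member reached 1 in size. The share in experiment 4 was thus close to that of all genes, and the share in experiment 3 was not; no test was made of either, since genes are not replicates.

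**Figure D1:**
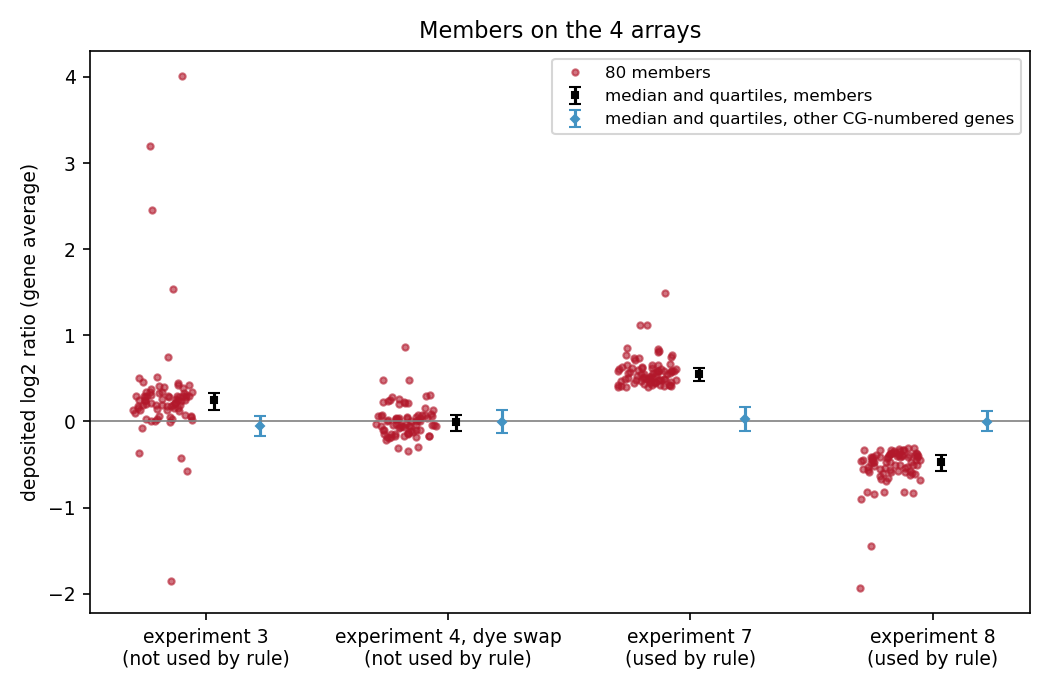
Deposited log2 ratio of each of the 80 members (points, gene averages) on the 4 arrays, with the median and quartiles of the members (black squares) and of the other 3051 CG-numbered genes (blue diamonds). Experiments 7 and 8 chose the members. In experiment 3, 74 of 80 members lie above 0 and in experiment 4, 40 of 80.

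Taken by gene, 39 members lay above 0 in both experiments 3 and 4 (48.8%), against 24.1% of all genes and 21.1% of the CG-numbered genes. The 48.8% adds little to the shares of members on each array, 92.5% above 0 in experiment 3 and 50% in experiment 4. Another 35 members were above 0 in experiment 3 only, and 1, CG9192, in experiment 4 only. The remaining 5 were below 0 on both arrays and are CG8476, CG15554, CG10859, CG4842 and CG8646. Over all genes, 42.9% were above 0 in experiment 3, and 24.1% were above 0 in both experiments. The count of 35 likewise adds little to the shares of members on each array. The value of experiment 3 exceeded that of experiment 4 in 70 members (87.5%), against 48.2% of all genes and 45.6% of the CG-numbered genes. Of the 14 members at or above 0.2 in experiment 4, 13 were above 0 in experiment 3 as well, the exception being CG9192. This is near the 92.5% of all 80 members above 0 in experiment 3, so it adds no agreement between the arrays. Over the 80 members the 2 arrays correlated at a Pearson r of 0.62 (Spearman rho 0.46). Without the 5 members of at least 1 in size in experiment 3, r was 0.14 and rho 0.36 over 75 members, so the Pearson value rests on those 5. These counts and correlations use experiment 4 as deposited, not turned. With it turned, the 35 members would be those above 0 on both arrays, and the correlations would change sign. The points share a pair of arrays and an annotation and are genes, not replicates.

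The 5 members of at least 1 in size in experiment 3 were the widest departures from the common small shift; over all genes, 1.86% were that large. CG10591 had 4.01, 0.86, 0.56 and -0.55 in experiments 3, 4, 7 and 8. CG13159, named above for its gap, had 3.19 in experiment 3 and 0.48 in experiment 4. CG15347 had 2.45, 0.26, 0.66 and -0.42 on the same arrays. CG31300 had 1.54 in experiment 3 and 0.29 in experiment 4. It and the 3 genes before it were higher in experiment 3 than on any other array. CG8476 was the only one of the 5 below 0 in experiment 3, at -1.85, and it had -0.19 in experiment 4. CG10621 came next in the mean of experiments 3 and 4, at 0.74 in experiment 3 and 0.04 in experiment 4. At the other end stood CG15554, at -0.57 in experiment 3 and -0.03 in experiment 4, and CG10859, at -0.37 in experiment 3 and -0.04 in experiment 4. CG4842 was near 0 on both, at -0.08 in experiment 3 and -0.13 in experiment 4. CG14589, of the wide gap above, was at 0.01 in experiment 3, so a wide gap between experiments 7 and 8 did not always come with a high value in experiment 3.

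**Figure D2:**
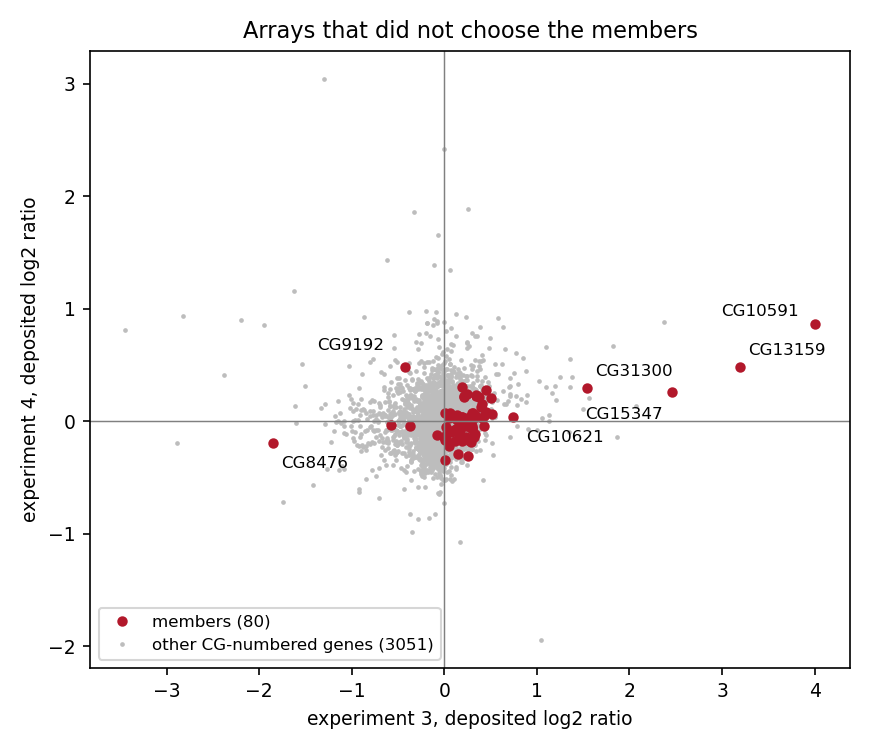
Deposited log2 ratio in experiment 3 (horizontal) and experiment 4 (vertical) for the 80 members (red) and the other 3051 CG-numbered genes (grey). Most members form a band just right of 0 in experiment 3 that is centred on 0 in experiment 4, and CG10591, CG13159, CG15347 and CG31300 lie far to the right.

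Markers of muscle and other differentiated tissues, which a syncytial embryo should lack, included some with wide values in experiment 3. Of 15 such genes, 9 were measured, and they ran from -0.48 to 3.46 there, with a median of -0.03 and 2 of the 9 at least 1 in size. The 2 were the myosin light chain genes Mlc2, at 3.46 in experiment 3 and 0.61 in experiment 4, and Mlc1, at 1.12 in experiment 3 and 0.40 in experiment 4. Also above 0 in experiment 3 were TpnC73F, at 0.95 there and 0.68 in experiment 4, and up, at 0.37 there and 0.40 in experiment 4. The 5 genes below 0 in experiment 3 were Lsp2 (-0.48), elav (-0.20), Act88F (-0.15), Act87E (-0.05) and Amy-p (-0.03). In experiment 8, 1 of the 9 was at least 1 in size, the neuronal gene elav at 1.88. All 9 were above 0 in experiment 4, between 0.02 and 0.68. Their part in the values of CG10591, CG13159, CG15347 and CG31300 was not tested.

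Experiments 3 and 4 were fitted together with limma over the 8222 genes, with a call defined as an adjusted p under 0.05 and a change of at least 1.5-fold (0.58 on the log2 scale). The fit called 0 members and 0 of 8222 genes (0%), whether or not experiment 4 was turned. With 1 residual degree of freedom the test rests on the spread borrowed across genes. At an unadjusted p under 0.05 and experiment 4 turned, 1 member was found (1.25%), against 2.03% of all genes. It was CG9192, at -0.43 in experiment 3 and 0.49 in experiment 4, with a mean of -0.46 ± 0.11 after turning (SE, 2 arrays, limma adjusted p = 0.999). Next in the order of p-values came CG17230, CG1239, CG3760 and CG4593, which all lay above 0 in experiment 3 and below 0 in experiment 4.

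With experiment 4 not turned, 8 members had an unadjusted p under 0.05 (10%), against 5.98% of all genes. The smallest belonged to CG8180, at 0.45 in experiment 3 and 0.28 in experiment 4, with a mean of 0.37 ± 0.11 (SE, 2 arrays, limma adjusted p = 0.764). The other 7 were CG10591, CG31300, CG17896, CG15916, CG2540, CG13159 and CG2129. All 8 were above 0 on both arrays, and none passed the adjustment. Of the 492 genes with such an unadjusted p, 300 had a mean above 0. Since 92.5% of the members lay above 0 in experiment 3, the shared sign of the 8 adds little. The 95% interval of the mean lay within 1.5-fold either way for 60 members with experiment 4 turned and for 65 with it not turned. A change of that size was not bounded for the rest. The same share over all genes was not computed, so these counts are not read as a trait of the members. These intervals rest on experiments 3 and 4 alone and do not cover the spread between all arrays of the comparison. The fit of all 4 arrays includes the pair that chose the members with opposite signs, which widens the spread of every member, so its count of members was set by the choice and nothing is read from it. It called 0 members and 0 of 8222 genes, and at an unadjusted p under 0.05 it found 0 members, against 4.86% of all genes with experiment 4 turned and 2.44% with it not turned.

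The high share above 0 in experiment 3 was next set against CG-numbered genes that met a single limit. Of 147 genes at or above 0.4 in experiment 7 but above -0.3 in experiment 8, 41.5% were above 0 in experiment 3, with a median of -0.09. Of 179 genes at or below -0.3 in experiment 8 but below 0.4 in experiment 7, 32.4% were above 0, with a median of -0.11. Of the 2725 genes that met neither limit, 36.2% were above 0. The share of the genes at the limit of experiment 7 alone varied with the clone library, at 16 of 64 AT spots but 9 of 10 LD spots above 0, against 40.9% of LD spots of genes that met neither limit. The members' 92.5% stood above the shares of genes that met either limit alone. Low shares were seen in 86 CG-numbered genes at or below -0.4 in experiment 7 and at or above 0.3 in experiment 8, where 14.0% were above 0 in experiment 3, with a median of -0.12. In experiment 4 the share above 0 was 50% in the members and 50% in the mirrored genes. It was 34.7% in the genes that met the limit of experiment 7 alone and 63.1% in those that met the limit of experiment 8 alone. The differences between these sets were not tested.

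**Figure D3:**
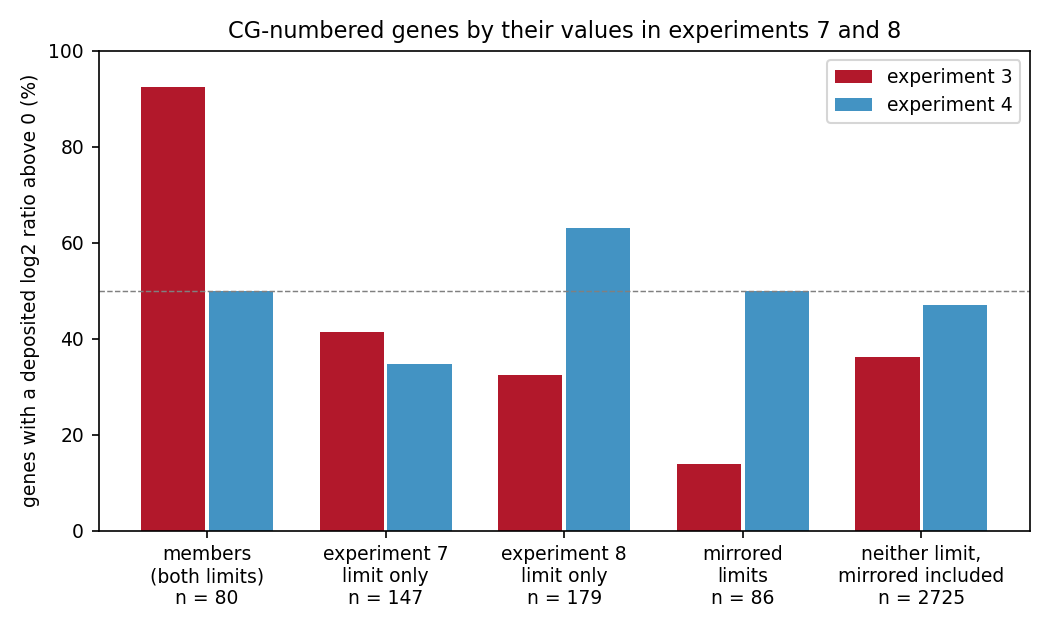
Share of CG-numbered genes with a deposited log2 ratio above 0 (vertical, percent) in experiment 3 (red) and experiment 4 (blue), by the limits they met in experiments 7 and 8; the dashed line marks 50%, and the bar for neither limit includes the 86 mirrored genes. The members stand at 92.5% in experiment 3 and the mirrored genes at 14.0%, and both stand at 50% in experiment 4.

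Many early zygotic genes, which the embryo switches on itself, had values of the opposite sign to those of the members. Of 30 listed, 18 were measured, and 10 of the 18 met the mirrored limits, which 2.86% of all genes met, while 0 met those of the members. Their medians were -0.24, -0.02, -0.51 and 0.36 in experiments 3, 4, 7 and 8. Above 0 were 1, 8, 1 and 13 of the 18 in experiments 3, 4, 7 and 8. Kruppel (Kr), a gap gene, had -0.29, -0.02, -0.74 and 0.49 on these arrays. The pair-rule gene odd had -0.20, 0.06, -0.86 and 0.54. The 5 genes that were below 0 in experiment 8 like the members had -0.48 (dpp), -0.26 (oc), -0.12 (hb), -0.08 (opa) and -0.03 (slam) there. The medians of these 18 genes in experiments 3, 7 and 8 thus had the opposite sign to those of the members, and both medians were near 0 in experiment 4. Maternal and germ plasm genes were less uniform. Of 20 listed, 16 were measured, with medians of 0.09, -0.11, -0.05 and -0.02 in experiments 3, 4, 7 and 8. Among them 2 met the limits of the members, exu, whose protein helps to place bicoid mRNA in the egg, and png, a kinase gene that acts at egg activation. For exu the values were 0.63, 0.46, 0.68 and -0.68 in experiments 3, 4, 7 and 8. For png they were 0.20, 0.50 and -0.41 in experiments 3, 7 and 8, and it was near 0 in experiment 4. The part of maternal and zygotic transcripts in the values of the members was not tested.

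The cDNA clones on the spots offer a property that the rule did not use, the library from which each clone was picked, read here from the first letters of its name. The 80 members were printed as 86 spots and the other CG-numbered genes as 3454. Clones of the RE library, a normalised embryo library, made up 28 member spots (32.6%), against 21.5% of the other spots. GH clones, from adult head, made up 22 (25.6%), against 19.8%, and RH clones, from a normalised head library, 13 (15.1%), against 8.92%. GM clones, from ovary, made up 7 (8.14%), against 4.05%. Fewer were LD clones, from embryos, with 6 spots (6.98%) against 18.7%, and AT clones, from adult testis, with 4 (4.65%) against 15.1%. SD clones, from Schneider cells, made up 4 member spots (4.65%), against 5.65%, and LP clones, from larvae and pupae, 2 (2.33%), against 5.04%. The genes that met the limit of experiment 7 alone had 64 of 157 spots (40.8%) from the testis library. Those that met the limit of experiment 8 alone had 4.93% AT and 19.7% RH spots. The 86 mirrored genes had 31.7% RE, 28.7% GH and 8.91% LD spots, so the shares of these libraries are not peculiar to the members. Their other shares were unlike those of the members, with 5.94% RH, 0% GM and 10.9% AT spots.

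Values above 0 in experiment 3 were found in members of every library that holds them. Above 0 there were 25 of 28 member spots of RE, against 35.2% of the other RE spots, and 20 of 22 of GH, against 37.5%. All 13 RH spots of members were above 0, against 27.7% of other RH spots, as were all 7 GM spots, against 52.1%, and all 6 LD spots, against 41.5%. The 4 SD spots were above 0 too, against 49.0% of other SD spots, and so were the 2 LP spots, against 43.1%. In the AT library 2 of 4 member spots were above 0, against 28.8% of the others. Without the members that have an AT clone, 71 of 76 members were above 0 in experiment 3 (93.4%). The share of member spots above 0 was thus higher than that of other spots in all 8 libraries that hold members, with 7 or fewer member spots in 5 of them.

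**Figure D4:**
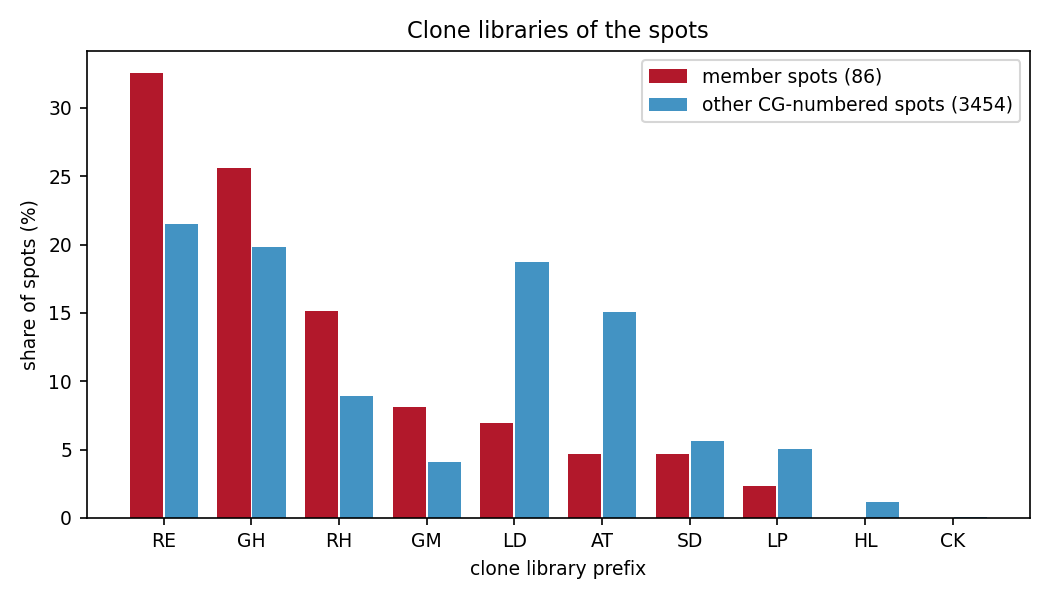
Share of spots (vertical, percent) by cDNA clone library prefix (horizontal) for the 86 spots of members (red) and the 3454 spots of other CG-numbered genes (blue). Member spots hold more RE, GH, RH and GM clones and fewer LD and AT clones than the other spots; these differences were not tested.

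All 80 members were found in the RefSeq table of Release 6 by gene identifier, all are listed as protein coding, and all still carry a CG number as their symbol. For 11 of them the table adds a second name that was read as the name of a protein, with a role known in most cases from mammals only. Of these 11, 10 were above 0 in experiment 3 and 3 in experiment 4, against 92.5% and 50% of all 80 members. CG9630 (DDX55, a DEAD-box RNA helicase in humans) had 0.20 in experiment 3 and -0.14 in experiment 4. CG1239 (BCDIN3D, an RNA methyltransferase in humans) had 0.28 in experiment 3 and -0.18 in experiment 4. CG6937 (NIFK, a nucleolar protein that binds Ki-67 in humans) had 0.29 in experiment 3 and -0.15 in experiment 4. All 3 were above 0 in experiment 3 and below it in experiment 4. Of the genes whose proteins act on membranes of the secretory pathway, CG11396 (TRAPPC12, a subunit of a vesicle tethering complex in humans) had 0.19 in experiment 3 and -0.14 in experiment 4. CG5382 (ZFPL1, a zinc-finger protein of the Golgi in mammals) had 0.30 in experiment 3 and -0.06 in experiment 4. These also fell on opposite sides of 0, and 35 of all 80 members were above 0 in experiment 3 only. Of the metabolic enzymes, CG17065 (Amdhd2, which deacetylates N-acetylglucosamine 6-phosphate in mammals) had 0.19 in experiment 3 and 0.04 in experiment 4. CG9577 (Ech1, an enzyme of fatty acid oxidation in mammals) had 0.01 in experiment 3 and -0.17 in experiment 4. Outside these groups, CG43373 (dADCY5, an adenylyl cyclase, which makes cyclic AMP) had 0.25 in experiment 3 and 0.03 in experiment 4. The second names of CG8112 (ACAT) and CG9588 (dp27) are each used of more than one protein, so no role is given. CG8112 had 0.25 in experiment 3 and 0.25 in experiment 4, and CG9588 had 0.18 in experiment 3 and -0.05 in experiment 4. CG8476 (Dnajb4, a co-chaperone of the Hsp40 family in mammals) was the one of the 11 below 0 in experiment 3, with the -1.85 given above. Its values in experiments 7 and 8 were 0.62 and -0.82, so it had experiment 7 high and experiment 8 low while standing lowest of all members in experiment 3.

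Most members rest on a single spot. Of the 80, 74 had 1 spot and 6 had 2, so agreement between clones of a gene can be read for few. CG15717 and CG5382 had both spots on the same side of 0 on every array, and their spots differed by 0.03 in experiment 3 in both cases. In 4 genes the spots differed in sign on 1 of the arrays that did not choose them. CG43373 had -0.01 on its AT clone and 0.51 on its SD clone in experiment 3. On its AT clone experiment 8 was at -0.14, outside the limit, so its place in the set came from the SD clone at -0.52. CG14543 had -0.21 on its RE clone and 0.08 on its RH clone in experiment 4, and its RH clone reached only 0.17 in experiment 7, against 0.83 on the RE clone. The spots of CG17065 had -0.01 and 0.09 in experiment 4, and those of CG7322 had -0.004 and 0.014. The 2-spot members thus included 2 whose place in the set depended on 1 of the clones.

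In gene order, 1 pair of members lay next to each other among protein-coding genes, CG3032 and CG4593. CG3032 had 0.03 in experiment 3 and -0.11 in experiment 4, and CG4593 had 0.32 in experiment 3 and -0.14 in experiment 4. Another 3 pairs had 1 to 3 protein-coding genes between them. They were CG10959 with CG2129, CG12123 with CG15347, and CG17202 with CG5196. CG12123 had 0.14 in experiment 3, so the 2.45 of CG15347 was not shared by it.

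The arrays held 12144 spots, of which 160 were controls, and 9917 of the other 11984 had 1 gene listed. The array medians over spots were -0.029, 0.0056, -0.0025 and -0.013 in experiments 3, 4, 7 and 8, so the values are centred near 0. The values were deposited as log2 ratios, and their direction remains unknown. The SD over spots was 0.28 to 0.39, widest in experiment 3. Of 11 follicle cell and yolk genes, 3 were measured, with medians of -0.25, 0.16, -0.52 and 0.13 on the same arrays. A ratio carries no level, so whether a marker is present in these embryos cannot be read. The number of arrays limits the precision. Spot intensities were not used here.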

How the data were processed

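Total RNA of wounded and unwounded embryos was hybridised as a Cy3 and Cy5 pair on 1 array per experiment (experiments 3, 4, 7 and 8; replicate numbers are experiment numbers). The authors scanned the arrays, deposited log2 ratios of spots that were loess normalized in limma, and filtered dim and questionable spots by their methods; their limma version and whether the filter was applied to the deposited values are not given in the sources used here. Spots that list 1 gene in the platform annotation were averaged per gene and array as deposited, and control spots were left out. Genes were tested by lmFit and eBayes of limma 3.58.1 (R 4.3.3), two-sided, with Benjamini-Hochberg adjustment over 8222 genes. The fit of experiments 3 and 4 turned the sign of experiment 4 as for Cy5 over Cy3, with no turning as an alternative. Medians of lists and shares above 0 are descriptions.

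The members and marker lists were chosen with earlier results of these data known. Named genes are the 5 highest and 5 lowest members in experiment 7 minus experiment 8 and in the mean of experiments 3 and 4, the 5 largest in size with experiment 4 turned, the 5 with the smallest p, genes at the limits, genes whose spots differ in sign, neighbours, and genes with a described second name. The list genes given by name (Mlc1, Mlc2, TpnC73F, up, Lsp2, elav, Act88F, Act87E, Amy-p, Kr, odd, dpp, oc, hb, opa, slam, exu and png) and the members CG8180, CG17896, CG15916, CG2540, CG2129, CG8646 and CG15717 fall outside that rule and were chosen after their values were seen. Searches of promoter motifs and of protein identity were not run, since no sequences were used here. The alternatives were other limits, spot medians, genes with 1 spot, centred and scaled arrays, current symbols, a dye term, and leaving out each array.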

Additional observations from a re-analysis of the deposited data

Results flagged for a closer look

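A search for single arrays that stand apart covered 162 values, those of the 80 members and of their median with experiment 4 turned and not turned, and found 1. It was CG9192 with experiment 4 turned, where experiment 7 stood at 0.57 and the other values lay together at -0.43 in experiment 3, -0.49 in experiment 4 after turning and -0.48 in experiment 8. The value of experiment 7 is one that the choice of members fixed to be high. The search used a limit that chance alone passes in about 1 in 20 groups of this size. That rate does not hold here, since the choice of members set experiments 7 and 8 apart in every group.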

How the results depend on the processing

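The share of members above 0 in experiment 3 ran from 89.5% to 93.4% over 8 alternatives, and the member median there from 0.19 with looser limits (0.3 and -0.2, 167 members) to 0.31 with the arrays scaled to one spread (65 members). In experiment 4 the share ran from 43.7% to 57.9% and the median from -0.03 to 0.02, with its sign above 0 when arrays were centred, when they were scaled and with stricter limits (0.5 and -0.4, 38 members). The alternatives for the shares, and that without AT clones, were added after the data were seen. At an unadjusted p alone, the fit of experiments 3 and 4 found 167 genes and 1 member with experiment 4 turned, and 492 genes and 8 members with it not turned, and the fit of all 4 arrays found 400 genes turned and 201 not turned. The alternatives with adjustment found 0 genes in both fits, and leaving out each array in turn from the fit of 4 arrays gave 0 to 0. Leaving out an array from the fit of experiments 3 and 4 leaves 1 array and no test. Each array is 1 ratio of wounded and unwounded embryos, so their pairing is already in the ratio. No further pairing of arrays was made, since all ratios form a single group. Without intensities, dim spots cannot be told from bright ones.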

Other observations

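The limits that chose the members were also met by 117 of the 5086 genes that carry a name. In experiment 3, 91.5% of those 117 were above 0, with a median of 0.28, against 46.1% of all named genes. In experiment 4, 59.0% of them were above 0, with a median of 0.02, against 50.6% of all named genes. The high share in experiment 3 was therefore seen in named as well as in CG-numbered genes that met both limits, and the difference between the 2 sets was not tested.

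A further 6 spots list a member together with another gene and were not averaged into any gene. In experiment 7, 5 of the 6 were above 0, with a median of 0.15. In experiment 8 they ran from -0.26 to 0.09, so that 0 of them reached the limit of -0.3. Above 0 in experiment 3 were 4 of the 6 spots, with a median of 0.02, against 92.5% and 0.24 for the members. Above 0 in experiment 4 were 5 of the 6, with a median of 0.24, against 50% and -0.01 for the members. These spots thus did not repeat the shift of the members in experiment 3.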
